A study of Homo sapiens with 9 samples.

Results

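The 10 genes described here are the transcription factor gene NFE2L2, which encodes NRF2, and 9 genes of the antioxidant and iron storage programme that NRF2 is known to control: NQO1, HMOX1, GCLC, GCLM, TXN, TXNRD1, SRXN1, FTH1 and FTL. They were chosen by symbol and not by a rule on their values, but with earlier results of these data known. They were taken by Ensembl identifier from the 60671 genes listed in the count tables. All 10 passed the filter on low counts, which left 14150 genes. Polyadenylated RNA was sequenced in H295R, a steroid-producing human cell line established from a carcinoma of the adrenal cortex, in 3 groups of 3 libraries described as biological replicates. The first group was labelled SGPL1 knockout (KO), the second SGPL1 overexpression (OE), and the last wild type (WT). The enzyme made from SGPL1, a lyase, irreversibly splits the lipid messenger sphingosine-1-phosphate, and the series' title links its expression to metabolic rate and survival in this cancer. All groups were untreated and grown near confluence in DMEM/F12 with NuSerum, penicillin and streptomycin, and a premix of insulin, transferrin and selenium, so that all received an iron carrier and the trace element that thioredoxin reductase needs. The sources used here do not give the kind of edit, the overexpression construct, whether a group is 1 clone or several, or whether its libraries came from separate cultures. P-values therefore rest on the spread between libraries, which may be technical in part.

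Under basal conditions the adaptor KEAP1 presents NRF2 to a CUL3 ubiquitin ligase and NRF2 is degraded. Oxidants and electrophiles modify cysteines of KEAP1, newly made NRF2 then accumulates, pairs with a small MAF protein and binds antioxidant response elements near its target genes. Much of the control of NRF2 thus acts on the protein and not on its mRNA. Ferritin, the iron storage shell, is controlled a second time: iron regulatory proteins bind a hairpin called the iron responsive element in the 5′ untranslated region of the ferritin mRNAs and hold back their translation when iron is scarce, while the same proteins protect the mRNA of the transferrin receptor. Steroid-making adrenal cells carry mitochondrial and microsomal cytochrome P450 enzymes, which hold haem iron and leak reactive oxygen species, and this tissue is known for a strong dependence on antioxidant enzymes.

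Library totals were 8553964 to 9351139 counts in KO, 8020836 to 10895080 in OE and 8006873 to 8549071 in WT. SGPL1 itself averaged 48.3 ± 5.05 CPM in KO, 93.5 ± 10.7 CPM in the libraries labelled OE and 94.3 ± 9.64 CPM in WT (SD, n = 3 each; CPM is the count scaled to 1e6 counts of the TMM-adjusted library total). It was lower in KO than in WT (log2 fold change -0.97 ± 0.14, SE; adjusted p = 0.000105). In the libraries labelled OE it was not higher than in WT (-0.01 ± 0.14, adjusted p = 0.966), so directions involving them are given by label, and "OE" below means the libraries so labelled. The counts cover the whole gene, so transcripts of an edited gene are still counted and a vector's coding sequence counts only where its reads map to the gene. All 10 adrenocortical markers listed (NR5A1, STAR, CYP11A1 and others) were tested, and their summed level was 2205 to 2608 CPM in KO, 2289 to 2708 CPM in OE and 1763 to 1971 CPM in WT. Markers of fibroblasts, epithelium and endothelium peaked at 126 (COL3A1), 293 (EPCAM) and 4 (VWF) counts in any library. Of the 7 fibroblast markers, 2 were tested, with a summed level of all 7 of 17.1 to 19.2 CPM in KO, 11.9 to 16.8 CPM in OE and 17.2 to 27.5 CPM in WT, and LUM was at 0 throughout. COL3A1 was lower in KO (log2 fold change -1.62 ± 0.29, adjusted p = 0.000699) and in OE (-1.54 ± 0.29, adjusted p = 0.00197) than in WT. Of the 6 epithelial markers, EPCAM was tested, with a summed level of 10.5 to 12.9 CPM in KO, 27.6 to 32.2 CPM in OE and 23.9 to 28.4 CPM in WT, and KRT5 and KRT14 at 0. EPCAM was lower in KO than in WT (-1.08 ± 0.16, adjusted p = 0.000192) and not called in OE (0.20 ± 0.16, adjusted p = 0.403). The part of these markers in the results below was not tested. The OE libraries carried relatively more counts of short genes: the slope of log2 CPM on log2 exonic length, relative to the mean over groups, was -0.07, -0.20 and -0.08 in OE replicates 1 to 3 and 0.04, 0.09 and 0.13 in KO, against 0.06, -0.05 and 0.10 in WT. Because of this, each change is also given below from a fit with an offset for length in each library where that alters the reading. In these bulk samples, fewer cells of a kind and less RNA per cell cannot be told apart.

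The 10 genes spanned a wide range of expression. Over the 9 libraries, levels per kilobase of exon averaged 999 CPM for FTL and 445 CPM for TXN, more than for 99.9% and 99.6% of the genes tested. FTH1 stood at 167, NQO1 at 70.8 and TXNRD1 at 66.4 CPM per kilobase, and NFE2L2 at 35.4. GCLM at 24.0, HMOX1 at 12.3, GCLC at 6.58 and SRXN1 at 3.55 CPM per kilobase followed. FTL, TXN and FTH1 thus lay at the top of this scale, and GCLM and HMOX1 above 84.2% and 72.6% of the genes tested. GCLC and SRXN1 lay near its middle, above 58.7% and 43.6%, but most exonic bases of SRXN1 are shared with another gene, so its place is uncertain. Together the 10 genes took 0.249% to 0.260% of all counts in KO, 0.291% to 0.348% in OE and 0.232% to 0.260% in WT, so every OE library was above every other. Some levels are partial, because reads that overlap more than 1 gene were left out and strand was ignored. SRXN1 shares 90.7% of its 2528 exonic bases with an overlapping gene on the same strand, and FTH1 shares 63.2% of its 2004 bases with BEST1 on the other strand. Per kilobase of exon not shared, SRXN1 stood at 43.4 CPM in KO, 36.7 CPM in OE and 34.0 CPM in WT. NFE2L2, NQO1 and GCLC share 21.9%, 19.4% and 9.68%. Reads that map to several places were left out too, which touches FTH1, FTL and TXN: the annotation names 25, 16 and 7 processed copies of them, whose summed counts were 2.08% to 4.18%, 0.0193% to 0.206% and 0.0391% to 0.173% of the parent gene's in any library.

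**Figure D1:**
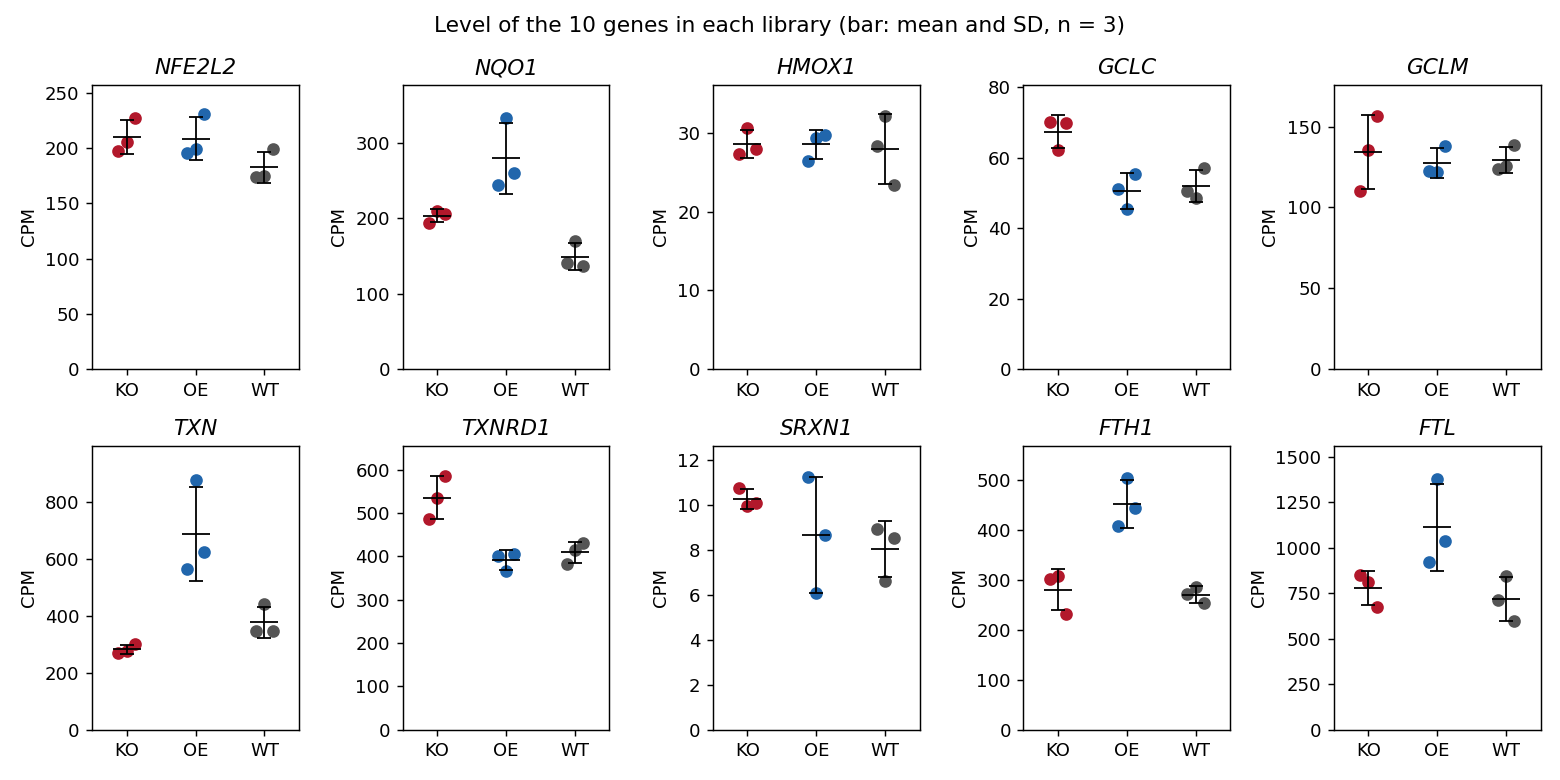
Level of each of the 10 genes by library in CPM (vertical axis, starting at 0), in KO (red), OE (blue) and WT (grey). Points are libraries, the long bar the mean and the whiskers the SD (n = 3); for NQO1, TXN, FTH1 and FTL every OE library lies above every WT library, and for NQO1, GCLC, TXNRD1 and SRXN1 every KO library does.

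NFE2L2 (ENSG00000116044, chromosome 2, 177227595 to 177392697, minus strand, GRCh38), the regulator itself, had 197.5, 206.0 and 227.1 CPM in KO replicates 1 to 3, 195.3, 199.3 and 230.9 CPM in OE, and 174.2, 174.8 and 199.1 CPM in WT. Each engineered group sat a little above WT on average, and its libraries overlapped with those of WT. The log2 fold change was 0.20 ± 0.11 for KO against WT (adjusted p = 0.250, 95% interval -0.04 to 0.44) and 0.19 ± 0.11 for OE against WT (adjusted p = 0.253, -0.05 to 0.43), neither of which passed the test in any of the 19 alternatives. Both comparisons use the same 3 WT libraries. Set directly against each other, KO and OE differed by 0.01 ± 0.11 on the log2 scale (adjusted p = 0.949, -0.23 to 0.25). Among 9183 protein-coding genes with a mean of at least 10 CPM, the 3 whose profile over the 9 libraries was most like that of NFE2L2 were SS18, HNRNPH2 and MIEF1, with root mean square differences of centred log2 CPM of 0.06, 0.07 and 0.07, against a median of 0.29 over those genes.

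Of the 9 other genes, NQO1 stood out by being higher than WT in both engineered groups. NQO1 (ENSG00000181019, chromosome 16, 69706996 to 69726668, minus strand), a quinone reductase that is a standard readout of NRF2, had 193.8, 210.1 and 206.1 CPM in KO, 244.6, 332.5 and 260.6 CPM in OE, and 140.2, 169.3 and 137.0 CPM in WT. The 3 groups did not overlap, and OE was highest, KO next and WT lowest. NQO1 rose 1.37-fold in KO against WT (log2 fold change 0.45 ± 0.13, adjusted p = 0.0226) and 1.88-fold in OE against WT (0.91 ± 0.13, adjusted p = 0.000411). KO was below OE, at -0.46 ± 0.13 on the log2 scale (adjusted p = 0.0102), a difference no longer called with the length offset (-0.27 ± 0.11, adjusted p = 0.0651). The rise in OE was called in all 19 alternatives. The rise in KO was lost when KO replicate 2 (adjusted p = 0.0893), KO replicate 3 (0.0637), WT replicate 1 (0.0990) or WT replicate 3 (0.0775) was left out. Per kilobase, NQO1 stood to NFE2L2 at a ratio of 1.85 ± 0.11 in KO, 2.58 ± 0.54 in OE and 1.57 ± 0.27 in WT (SD, n = 3 each), a description without a test.

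HMOX1 (ENSG00000100292, chromosome 22, 35380361 to 35394207, plus strand), haem oxygenase 1, which frees iron from haem and is induced by oxidants, haem and many stresses, was not called in any comparison. It had 27.3, 30.6 and 27.9 CPM in KO, 26.5, 29.3 and 29.8 CPM in OE, and 28.4, 32.2 and 23.3 CPM in WT, and the groups overlapped fully. Its log2 fold change was 0.03 ± 0.16 in KO (adjusted p = 0.914, 95% interval -0.29 to 0.36) and 0.03 ± 0.16 in OE (adjusted p = 0.912, -0.30 to 0.36), with 203 to 317 counts per library.

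Of the glutathione pair, GCLC was higher in KO than in OE, and GCLM was not called in any comparison. GCLC and GCLM encode the catalytic and the modifier subunit of glutamate-cysteine ligase, the enzyme of the rate-limiting step of glutathione synthesis. GCLC (ENSG00000001084, chromosome 6, 53497341 to 53616970, minus strand) had 70.2, 62.1 and 70.0 CPM in KO, 51.02, 45.4 and 55.4 CPM in OE, and 50.5, 48.4 and 57.0 CPM in WT. Every KO library was above every OE and WT library, while OE and WT overlapped. Against WT the KO level did not pass the test (log2 fold change 0.37 ± 0.13, adjusted p = 0.0622), although it did with the length offset (0.36 ± 0.12, adjusted p = 0.0354), with a replicate block (adjusted p = 0.0359), with DESeq2 (adjusted p = 0.0418) and without OE replicate 2 (adjusted p = 0.0443). Against OE it was higher (0.41 ± 0.13, adjusted p = 0.0220), but not with the length offset (0.17 ± 0.12, adjusted p = 0.290), nor without KO replicate 1 (0.0657) or 3 (0.0653), or OE replicate 1 (0.0508) or 2 (0.0967). GCLM (ENSG00000023909, chromosome 1, 93885199 to 93909456, minus strand) had 110.4, 135.6 and 156.7 CPM in KO, 122.3, 121.8 and 138.2 CPM in OE, and 123.6, 125.8 and 138.8 CPM in WT. Its KO libraries reached both below and above those of the other groups. Its log2 fold change was 0.05 ± 0.13 in KO against WT (adjusted p = 0.831, 95% interval -0.23 to 0.33) and -0.02 ± 0.13 in OE against WT (adjusted p = 0.927, -0.30 to 0.26). Per kilobase, GCLC over GCLM was 0.32 ± 0.07 in KO, 0.25 ± 0.01 in OE and 0.25 ± 0.01 in WT (SD, n = 3 each).

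The thioredoxin pair differed in opposite directions between the engineered groups, TXN being lower and TXNRD1 higher in KO than in OE. Thioredoxin, encoded by TXN, reduces disulfides in other proteins, and thioredoxin reductase 1, a selenoenzyme encoded by TXNRD1, recharges it with electrons from NADPH. TXN (ENSG00000136810, chromosome 9, 110243810 to 110256507, minus strand) had 269.8, 275.3 and 299.6 CPM in KO, 562.6, 876.2 and 625.0 CPM in OE, and 345.0, 439.9 and 347.1 CPM in WT. The 3 groups did not overlap, with OE at the top, KO at the bottom and replicate 2 highest within both OE and WT. TXN rose 1.82-fold in OE against WT (log2 fold change 0.87 ± 0.15, adjusted p = 0.00121), a call that held in all 19 alternatives and was smaller with the length offset (0.66 ± 0.11, adjusted p = 0.000421). KO against WT gave -0.42 ± 0.15 and did not pass the test (adjusted p = 0.0572), but passed in 9 of the 19 alternatives, among them without OE replicate 1 (adjusted p = 0.0422) and without OE replicate 2 (0.00786). Set directly against OE, KO was lower, at -1.29 ± 0.15 on the log2 scale (adjusted p = 8.91e-06), also in all 19 alternatives. Of the 50 genes tested nearest to TXN on chromosome 9, 11 were called lower in KO than in WT, with a median log2 fold change of -0.30, and the part of that neighbourhood in the TXN value was not tested.

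TXNRD1 (ENSG00000198431, chromosome 12, 104215779 to 104350307, plus strand) had 485.8, 535.6 and 585.2 CPM in KO, 401.9, 365.9 and 406.8 CPM in OE, and 382.8, 414.9 and 430.2 CPM in WT. Every KO library was above every other library, and OE overlapped with WT. TXNRD1 rose 1.31-fold in KO against WT (log2 fold change 0.39 ± 0.11, adjusted p = 0.0171) and was higher in KO than in OE (0.45 ± 0.11, adjusted p = 0.00318, called in all 19 alternatives). The rise over WT was lost without KO replicate 2 (adjusted p = 0.0630), KO replicate 3 (0.0869) or WT replicate 1 (0.0913). Of the 50 genes tested nearest to TXNRD1 on chromosome 12, 11 were called higher and 3 lower in KO than in WT. Their median log2 fold change was 0.06, and their part in the TXNRD1 value was not tested. OE against WT gave -0.06 ± 0.11 (adjusted p = 0.713, 95% interval -0.29 to 0.16). Within libraries, TXN over TXNRD1 per kilobase was 3.69, 3.42 and 3.40 in KO, 9.30, 15.9 and 10.2 in OE, and 5.99, 7.05 and 5.36 in WT. By these counts KO libraries held the least and OE libraries the most thioredoxin mRNA relative to that of its reductase, without overlap of the groups. The ratio carries no length offset, and TXN has 1010 and TXNRD1 6710 exonic bases. With the offset, KO against OE was smaller for both, at -0.93 ± 0.11 for TXN (adjusted p = 2.14e-06) and 0.32 ± 0.10 for TXNRD1 (adjusted p = 0.0147). The part of gene length in the ratio was not tested. Outside the 10 genes, the 3 genes whose profile over the 9 libraries was most like that of TXN, the member with the widest range, were the ribosomal protein genes RPS13 and RPS24 and the calmodulin regulator gene PCP4. Their root mean square differences of centred log2 CPM were 0.09 for RPS13, 0.10 for PCP4 and 0.11 for RPS24, against a median of 0.60 over the 9183 genes.

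SRXN1 (ENSG00000271303, chromosome 20, 646615 to 653200, minus strand), sulfiredoxin, which repairs peroxiredoxins whose cysteine was overoxidised, was the most weakly counted of the 10, with 44 to 102 counts per library. It had 10.7, 9.94 and 10.1 CPM in KO, 11.2, 6.09 and 8.65 CPM in OE, and 8.93, 6.60 and 8.51 CPM in WT. The KO libraries lay narrowly above those of WT and the OE libraries spread across both. Neither change passed the test, with 0.35 ± 0.23 in KO (adjusted p = 0.338, 95% interval -0.14 to 0.85) and 0.12 ± 0.24 in OE (adjusted p = 0.765, -0.38 to 0.62). Its surroundings on chromosome 20 did not share this sign: of the 50 genes tested nearest to it, 47 were below 0 in KO against WT and 29 were called lower, with a median log2 fold change of -0.69.

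Both ferritin subunit genes rose in OE and neither was called in KO. FTH1 encodes the heavy chain, which oxidises ferrous iron for storage, and FTL the light chain, which helps the mineral core to form. FTH1 (ENSG00000167996, chromosome 11, 61959718 to 61967634, minus strand) had 301.4, 308.5 and 232.6 CPM in KO, 409.1, 503.8 and 443.3 CPM in OE, and 271.9, 286.6 and 253.7 CPM in WT. Every OE library was above all KO and WT libraries, and KO straddled WT. FTH1 rose 1.67-fold in OE against WT (log2 fold change 0.74 ± 0.13, adjusted p = 0.00112), in all 19 alternatives and at 0.59 ± 0.10 with the length offset (adjusted p = 0.000521), while KO against WT gave 0.05 ± 0.12 (adjusted p = 0.821, 95% interval -0.21 to 0.32). FTL (ENSG00000087086, chromosome 19, 48965309 to 48966879, plus strand) had 851.9, 813.5 and 671.8 CPM in KO, 919.6, 1379 and 1038 CPM in OE, and 714.5, 841.5 and 597.6 CPM in WT. OE was again above the others without overlap, with replicate 2 highest in both OE and WT. FTL rose 1.55-fold in OE against WT (0.63 ± 0.15, adjusted p = 0.00900), at 0.42 ± 0.11 with the length offset (adjusted p = 0.00839), and the call was lost without WT replicate 3 (adjusted p = 0.0511). KO against WT gave 0.12 ± 0.15 (adjusted p = 0.653, -0.20 to 0.44). KO was lower than OE for FTH1 (-0.69 ± 0.12, adjusted p = 0.000455, in all 19 alternatives) and for FTL (-0.51 ± 0.15, adjusted p = 0.0129), the FTL difference being lost with the length offset (-0.16 ± 0.11, adjusted p = 0.267), without KO replicate 3 (0.0734) and without OE replicate 2 (0.0532). The proportion of the chains overlapped between the groups: FTH1 over FTL per kilobase of exon was 0.156 ± 0.008 in KO, 0.179 ± 0.018 in OE and 0.166 ± 0.018 in WT (SD, n = 3 each), and 0.425 ± 0.020, 0.487 ± 0.049 and 0.451 ± 0.050 in KO, OE and WT per kilobase of exon not shared with another gene.

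**Figure D2:**
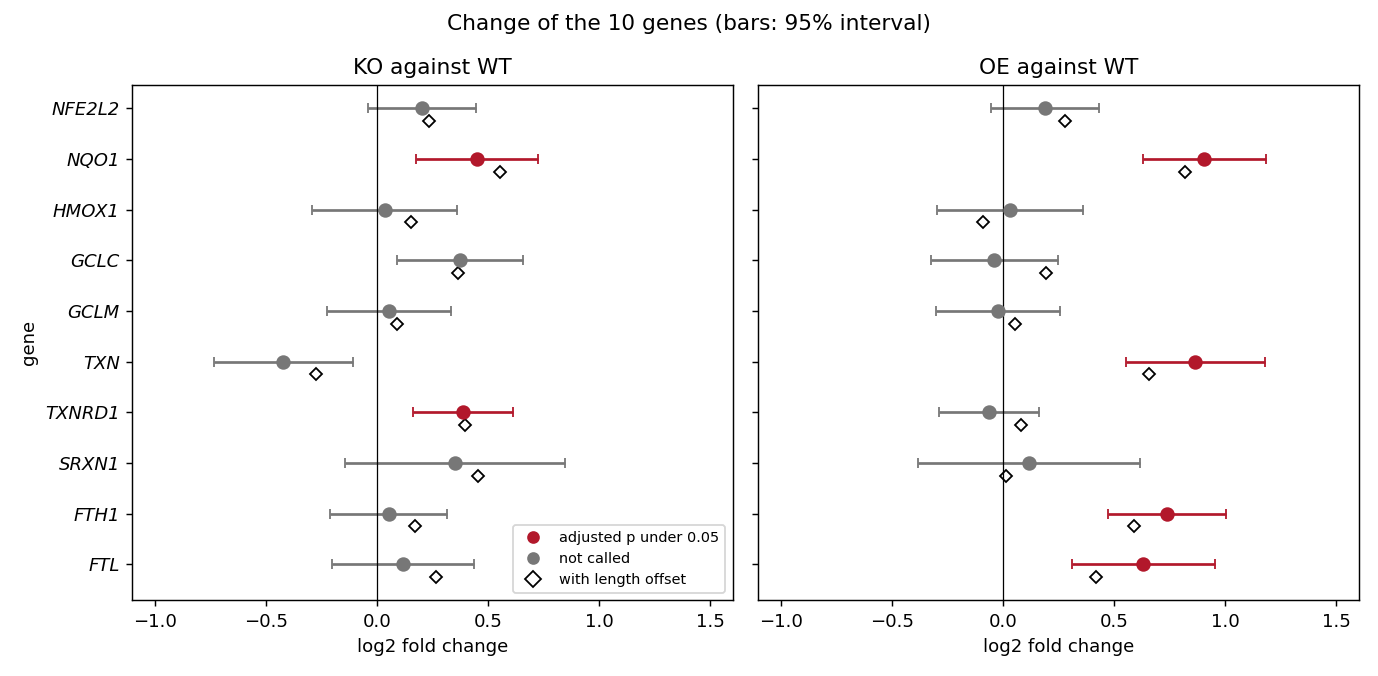
Log2 fold change (horizontal axis) of the 10 genes (rows) in KO against WT (left) and OE against WT (right). Filled points and bars are the estimate and its 95% interval, red where the adjusted p was under 0.05, and open diamonds the estimate with the length offset; NQO1 and TXNRD1 are red on the left, and NQO1, TXN, FTH1 and FTL on the right.

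Counted together, 2 of the 10 genes were called higher in KO than in WT, where 9.16% of all genes tested were called higher and 9.60% lower. The other 8 were not called in edgeR's test. At an unadjusted p under 0.05, 3 were higher (GCLC in addition) and 1, TXN, was lower. The share of all genes under that looser rule is not given, so these counts have no background beside them. In OE, 4 of the 10 were called higher than in WT, where 9.65% of all genes were called higher and 11.0% lower, and the remaining 6 were not called. Between the engineered groups, 2 were higher in KO than in OE (GCLC and TXNRD1) and 4 lower (NQO1, TXN, FTH1 and FTL), against 20.6% and 19.0% of all genes. The KO against WT share was thus not far from the background for so few genes, and the OE against WT share above it. The median log2 fold change of the 10 genes was 0.16 in KO against WT, where that of all genes tested was -0.01, and 0.15 in OE against WT, where that of all genes was -0.01. With the length offset, 3 exceeded WT in KO (12.7% of all genes were higher and 9.83% lower), 4 were higher in OE than in WT (12.9% were higher and 8.17% lower), and 1 was higher and 2 were lower in KO than in OE (18.3% and 19.7%). No overlap between libraries was seen for 4 genes higher and 1 lower in KO against WT, where 17.6% of all genes were higher and 17.6% lower by that rule, and for 4 higher in OE against WT, where 17.8% were higher and 18.6% lower. Between KO and OE, 2 were higher and 4 lower without overlap, beside 26.4% and 25.3% of all genes. When KO replicate 2, KO replicate 3 or WT replicate 1 was left out, the count called higher in KO against WT dropped to 0.

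The 4 genes that rose in OE are among the shorter ones of the set, in libraries with relatively more counts of short genes. FTL has 871, TXN 1010, FTH1 2004 and NQO1 2971 exonic bases. Lengths here and in the length offset count all annotated exons of a gene, not 1 transcript. They include bases shared with other genes: 737 bases of FTH1, 2396 of NQO1 and 236 of SRXN1 are not shared. The 200 genes tested nearest in length to each of the 4 genes had median log2 fold changes in OE against WT of 0.26 for FTL, 0.21 for TXN, 0.20 for FTH1 and 0.19 for NQO1. The members exceeded these medians, and 76.0%, 91.0%, 88.0% and 95.5% of the length neighbours of FTL, TXN, FTH1 and NQO1 lay below them. HMOX1 and SRXN1, with 2299 and 2528 bases, lay below their neighbours' medians, which were 0.27 and 0.17. The longer members NFE2L2, GCLM, TXNRD1 and GCLC, with 5671, 5426, 6710 and 8618 bases, were compared with medians of 0.00, -0.01, -0.10 and -0.19.

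**Figure D3:**
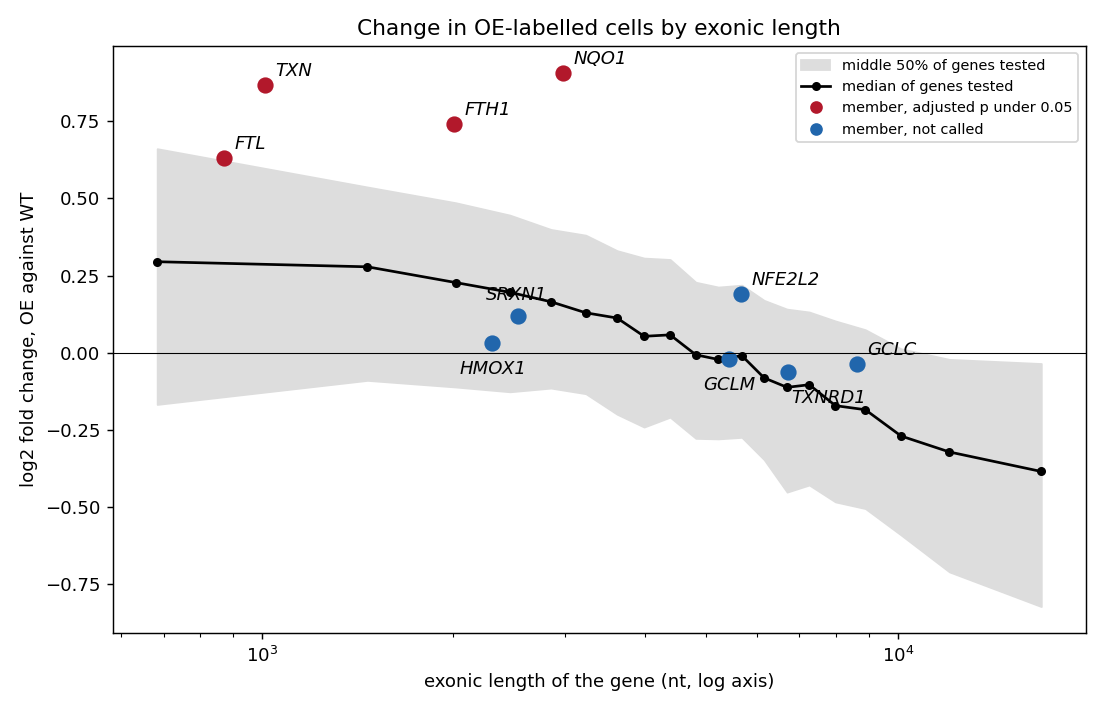
Log2 fold change in OE against WT (vertical axis) by exonic length in bases (horizontal log axis). The line gives the median and the shaded band the middle 50% of the genes tested in 20 bins of about equal size, and labelled points are the 10 genes, red where called; the median runs from 0.29 in the shortest bin to -0.38 in the longest, and TXN, FTH1 and NQO1 lie above the band.

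The sequence that NRF2 with a small MAF protein binds was looked for in the promoters of the 10 genes, to show which of them carry it next to their start. The motif TGACNNNGC, an antioxidant response element core, was searched on both strands, from 250 bases before to 50 after each annotated start, in the RefSeq promoters of GRCh38.p14, which hold an entry for 8 of the 10 genes. It was present in 2 of them, GCLM and TXNRD1, and in 4687 of all 35116 promoters (13.3%). The stretches that hold the matches follow, 5′ to 3′ on the gene's strand, with the matched bases in capitals. The first is chr1:93909431-93909530, minus strand, bases -100 to -1, and the second chr12:104215659-104215788, plus strand, bases -120 to 10 counted from the start.
GCLM: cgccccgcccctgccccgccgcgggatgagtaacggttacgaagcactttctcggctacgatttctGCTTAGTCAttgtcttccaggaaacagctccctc
TXNRD1: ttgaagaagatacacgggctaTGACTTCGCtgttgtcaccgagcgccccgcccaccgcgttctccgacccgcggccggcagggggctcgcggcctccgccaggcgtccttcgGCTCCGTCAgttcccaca
The GCLM match lies on the other strand at -34 to -26. TXNRD1 has a match on its own strand at -99 to -91 and a second on the other strand at -8 to 1, and its second annotated start has another at -102 to -94. TXNRD1 rose in KO and GCLM did not pass the test in either engineered group. NQO1, TXN and FTL, which rose in OE, held no such letters in this window, a statement about the window alone.

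Most regulators of NRF2 were not called, and a few coactivator and factor genes were lower in OE. Of 16 regulators and partners, 1 was higher and 1 lower in KO than in WT (9.16% of all genes were higher and 9.60% lower), and 1 was higher and 4 lower in OE than in WT (9.65% of all genes were higher and 11.0% lower), with median log2 fold changes of 0.03 and 0.04. With the length offset 3 were higher and 1 lower in KO, and 2 were higher and 4 lower in OE. KEAP1, the adaptor that delivers NRF2 for degradation, averaged 186 ± 17.5 CPM in KO, 206 ± 13.1 CPM in OE and 183 ± 19.4 CPM in WT (SD, n = 3 each), and was not called in KO (log2 fold change 0.03 ± 0.12, adjusted p = 0.915) or in OE (0.17 ± 0.12, adjusted p = 0.334). KEAP1 is shown for its role and not for its rank. NFE2L1, a factor related to NRF2 that is known for control of proteasome genes, averaged 130 ± 13.8 CPM in OE and 243 ± 31.6 CPM in WT, and was lower in OE at a log2 fold change of -0.90 ± 0.12 (adjusted p = 0.000276). CREBBP, a histone acetyltransferase that acts as coactivator of NRF2, was lower in OE at -1.49 ± 0.27 (adjusted p = 0.00189), with 22.8 ± 6.26 CPM in OE against 64.4 ± 29.4 CPM in WT. It is a long gene, with 15479 exonic bases, and the length offset reduced its change to -1.05 ± 0.21 (adjusted p = 0.00157). NFE2L1 and CREBBP were called in OE in all 19 alternatives.

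Other known target enzymes of NRF2 included many that were higher in OE. Of 33 listed, 28 were tested: 4 were higher and 4 lower in KO than in WT (median log2 fold change -0.08), where 9.16% of all genes were higher and 9.60% lower. In OE, 11 were higher and 4 lower than in WT (median 0.31), where 9.65% of all genes were higher and 11.0% lower. With the length offset 7 were higher and 5 lower in KO, and 11 were higher and 2 lower in OE. TKT, transketolase of the pentose phosphate pathway, was higher in OE than in WT (log2 fold change 0.55 ± 0.11, SE; adjusted p = 0.00344), and IDH1, a cytosolic source of NADPH, was higher in KO than in WT (0.78 ± 0.12, adjusted p = 0.000166). AKR1C2, an aldo-keto reductase, was higher in KO (1.08 ± 0.24, adjusted p = 0.00376), at 12.3 ± 1.12 CPM against 5.82 ± 0.48 CPM in WT. GSTA1, a glutathione transferase that is abundant in steroid-making cells, averaged 164 ± 37.4 CPM in OE and 353 ± 56.7 CPM in WT, with a log2 fold change of -1.11 ± 0.15 (adjusted p = 0.000256). ABCC1, an exporter of glutathione conjugates, was lower in OE at -0.87 ± 0.18 (adjusted p = 0.00392). SLC7A11, the cystine transporter that feeds glutathione synthesis, had 13.3, 14.5 and 20.4 CPM in KO, 17.5, 19.4 and 17.7 CPM in OE, and 24.4, 26.0 and 35.3 CPM in WT. It lay below every WT library in both engineered groups, and its log2 fold change was -0.83 ± 0.19 in KO (adjusted p = 0.00615) and -0.66 ± 0.19 in OE (adjusted p = 0.0244). The OE call for SLC7A11 was lost with the length offset (adjusted p = 0.136) and without OE replicate 1 (0.0605), OE replicate 3 (0.0710) or WT replicate 3 (0.154), whereas the other calls of this paragraph held in all 19 alternatives.

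Among 20 genes of the thioredoxin, peroxiredoxin and glutaredoxin system beside TXN, TXNRD1 and SRXN1, 1 was higher and 1 lower in KO than in WT (median log2 fold change -0.01). For so few genes this is not far from the share of all genes (9.16% higher and 9.60% lower). In OE 6 were higher than in WT (median 0.32), where 9.65% of all genes were higher and 11.0% lower, and the other 14 were not called. With the length offset 2 were higher and 1 lower in KO, and 6 were higher and 2 lower in OE, the lower ones being TXNIP (adjusted p = 0.0258) and PRDX3 (adjusted p = 0.0414), named here after their values were seen. PRDX6, a peroxiredoxin that reduces phospholipid hydroperoxides, had 857, 882.7 and 819.9 CPM in KO, 530.9, 717.2 and 621.3 CPM in OE, and 387.9, 478.2 and 357.4 CPM in WT. It was above WT in every library of both engineered groups, by 1.07 ± 0.13 in KO (adjusted p = 2.12e-05) and 0.61 ± 0.13 in OE (adjusted p = 0.00412). Its 50 tested neighbours on chromosome 1 had a median of 0.84 in KO, with 31 called higher, and their part in the KO value was not tested. PRDX1, a peroxiredoxin that thioredoxin recharges, had 321 ± 9.23 CPM in KO, 535 ± 81.6 CPM in OE and 326 ± 40.7 CPM in WT, and rose in OE by 0.71 ± 0.12 (adjusted p = 0.00136). MSRA, a thioredoxin-dependent methionine sulfoxide reductase, rose in OE by 1.24 ± 0.15 (adjusted p = 0.000104), at 38.4 ± 2.51 CPM in OE against 16.2 ± 0.89 CPM in WT, and GLRX3, a glutaredoxin with a part in iron handling, by 0.59 ± 0.11 (adjusted p = 0.00253). Of 14 tested genes of glutathione recycling and peroxidases, 1 was higher and 4 lower in KO than in WT (median -0.04) and 2 higher and 2 lower in OE than in WT (median 0.06). With the length offset these counts were 4 higher and 4 lower in KO (median 0.05), and 1 higher and 1 lower in OE. GPX3, a secreted glutathione peroxidase, rose in KO by 2.96 ± 0.46 (adjusted p = 0.000242), at 13.9 ± 0.88 CPM against 1.77 ± 0.79 CPM in WT. GPX4, another glutathione peroxidase and 1 of the 4 lower in KO, had 230 ± 26.0 CPM in KO against 340 ± 49.9 CPM in WT. Its log2 fold change was -0.57 ± 0.14 (adjusted p = 0.0104), a call lost without KO replicate 3 (adjusted p = 0.0629). The 50 tested neighbours of GPX4 on chromosome 19 had a median of -0.29 in KO against WT, with 12 called lower and 0 higher. Their part in the GPX4 value was not tested. GPX1, the cytosolic glutathione peroxidase, rose in OE by 0.86 ± 0.17 (adjusted p = 0.00273). Of the 5 superoxide dismutase and catalase genes, 1 was higher and 1 lower in KO than in WT, and 0 were higher and 1 lower in OE. CAT, which breaks down hydrogen peroxide in peroxisomes, rose in KO by 0.78 ± 0.14 (adjusted p = 0.000864), with 96.2 ± 8.47 CPM in KO against 56.1 ± 6.58 CPM in WT. SOD3 was lower in KO at -0.96 ± 0.27 (adjusted p = 0.0180) and in OE at -0.86 ± 0.27 (adjusted p = 0.0305). These SOD3 calls held in 15 and 14 of the 19 alternatives. The calls named for PRDX6, PRDX1, MSRA, GLRX3, GPX3, GPX1 and CAT held in all 19 alternatives.

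Ferritin is one arm of iron handling, and genes of its other arms were called as well. Of 15 tested genes of iron uptake, export and sensing, 5 were higher and 2 lower in KO than in WT (median log2 fold change 0.06), where 9.16% of all genes were higher and 9.60% lower. In OE 1 was higher and 3 lower than in WT (median -0.04), where 9.65% of all genes were higher and 11.0% lower. With the length offset 3 were higher and 1 lower in OE, where the balance of all genes turned the same way (12.9% higher and 8.17% lower). In KO the offset left 5 higher and 2 lower, where 12.7% of all genes were higher and 9.83% lower. TFRC, the transferrin receptor through which cells take up iron, had 1474, 1765 and 2001 CPM in KO, 985.0, 762.1 and 946.0 CPM in OE, and 1166, 1190 and 1290 CPM in WT. Its order, KO above WT above OE without overlap, was the reverse of that of TXN. TFRC rose in KO by 0.52 ± 0.12 (adjusted p = 0.00682, in all 19 alternatives) and was lower in OE at -0.44 ± 0.12 (adjusted p = 0.0206). The fall in OE was not called with the length offset (-0.24, adjusted p = 0.0954) or without OE replicate 2 (0.0762), WT replicate 1 (0.0548) or WT replicate 3 (0.0832). Ferritin mRNA and TFRC mRNA thus differed in opposite directions in OE against WT, whereas in KO TFRC rose and neither ferritin gene was called. SLC40A1, ferroportin, which exports iron, had 26.4, 30.5 and 30.2 CPM in KO, 10.9, 6.36 and 10.1 CPM in OE, and 7.35, 13.6 and 9.43 CPM in WT. The KO libraries stood well above the others, and SLC40A1 rose in KO by 1.52 ± 0.23 (adjusted p = 0.000152). IREB2, iron regulatory protein 2, rose in KO by 0.68 ± 0.15 (adjusted p = 0.00338), with 370 ± 62.4 CPM in KO against 231 ± 31.1 CPM in WT. HEPH, hephaestin, a ferroxidase that works with ferroportin, had 29.3, 30.9 and 37.9 CPM in KO, 50.7, 34.6 and 46.0 CPM in OE, and 87.5, 83.0 and 89.9 CPM in WT, with log2 fold changes of -1.41 ± 0.16 in KO (adjusted p = 9.73e-06) and -0.99 ± 0.16 in OE (adjusted p = 0.000666). The SLC40A1, IREB2 and HEPH calls held in all 19 alternatives.

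**Figure D4:**
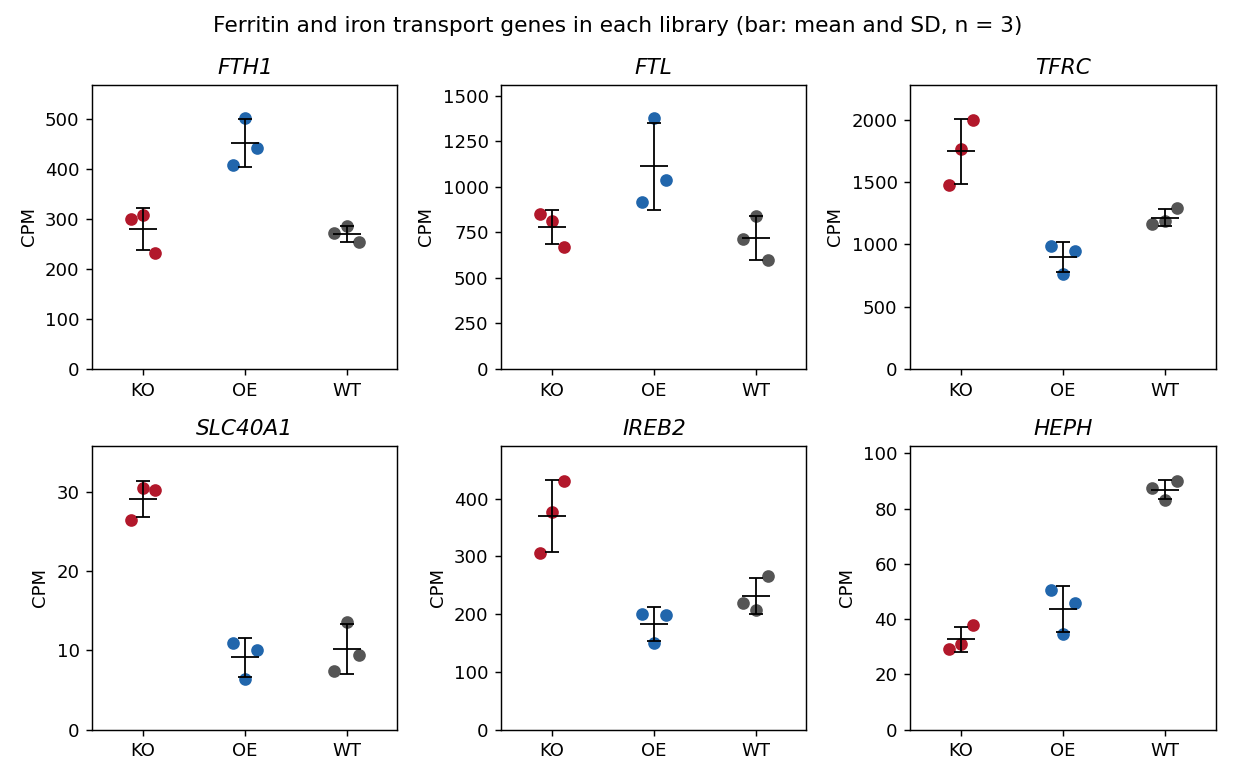
Levels in CPM (vertical axis, starting at 0) of FTH1, FTL, TFRC, SLC40A1, IREB2 and HEPH by library in KO (red), OE (blue) and WT (grey). Points are libraries and bars the mean and SD (n = 3); the ferritin genes are highest in OE, TFRC, SLC40A1 and IREB2 in KO, and HEPH in WT.

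The iron responsive elements that link these mRNAs can be read from the transcripts, and they are shown because FTH1 and FTL carry theirs at one end and TFRC at the other. The motif CNNNNNCAGTGN was searched in GENCODE 29 transcripts on GRCh38, on the transcript strand. It occurred once in the 5′ untranslated region of each ferritin mRNA, 5 times in the 3′ untranslated region of TFRC, and in the first 100 bases of 2988 of 83119 protein-coding transcripts (3.59%). FTH1 held 1 further match in its 3′ untranslated region. Capitals mark the loop CAGTGN. The FTH1 stretch is chr11:61967573-61967602, minus strand, the FTL stretch chr19:48965335-48965364, plus strand, and the TFRC stretch, the first of its 5, chr3:196050978-196051007, minus strand.
FTH1: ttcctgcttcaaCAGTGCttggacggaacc
FTL: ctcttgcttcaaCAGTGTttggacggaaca
TFRC: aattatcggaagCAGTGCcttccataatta
Counts of mRNA do not show how much of it was translated, which is the step that the ferritin elements are known to control.

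Haem genes beside HMOX1 gave calls in both engineered groups. Of 14 genes of haem synthesis and breakdown, 3 were higher and 1 lower in KO than in WT (median log2 fold change -0.12), where 9.16% of all genes were higher and 9.60% lower. In OE 5 were higher than in WT with 9 not called (median 0.30), where 9.65% of all genes were higher and 11.0% lower. ALAS1, the rate-limiting enzyme of haem synthesis, averaged 200.5 ± 5.69 CPM in KO, 164 ± 11.4 CPM in OE and 118 ± 9.82 CPM in WT (SD, n = 3 each). It rose in KO by 0.76 ± 0.11 (adjusted p = 0.000130) and in OE by 0.47 ± 0.11 (adjusted p = 0.00818), in all 19 alternatives each. PGRMC1, a haem-binding partner of cytochrome P450 enzymes, rose in KO by 0.59 ± 0.11 (adjusted p = 0.000866), also in all 19. Of 8 tested genes linked to lipid peroxidation in ferroptosis, 2 rose in KO against WT and 6 were not called (median 0.19), and 1 was higher and 1 lower in OE than in WT (median 0.01), beside the same shares of all genes. GCH1, which makes the antioxidant cofactor tetrahydrobiopterin, rose in KO by 0.93 ± 0.17 (adjusted p = 0.000882). POR, which passes electrons to microsomal cytochrome P450 enzymes and haem oxygenase, rose in OE by 0.53 ± 0.13 (adjusted p = 0.00826).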

How the data were processed

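The authors deposited raw read counts per gene for 9 libraries. Per the file headers, featureCounts 1.5.2 was run on an Ensembl release 101 annotation of GRCh38 with default options, so reads were counted, strand was ignored, and reads mapping to several places or overlapping several genes were left out. The submitters' processing notes name HISAT2 1.03, DESeq2 and, unlike the header, featureCounts 0.1.0. From the counts, edgeR 4.0.16 (R 4.3.3; quasi-likelihood F test, TMM, filterByExpr with minimum count 10, all libraries in 1 fit, 6 residual degrees of freedom) gave log2 fold changes with SE. P-values were Benjamini-Hochberg adjusted over 14150 genes, and a gene was called under 0.05. The median SE was 0.187. The method was tested on simulated data. No libraries of a group agreed within sampling noise. The length offset is a spline on log2 exonic length per library (5 degrees of freedom). The members and lists were chosen with earlier results of these data known. Named genes are the 10 members, SGPL1 and, per list and comparison, up to 4 called genes with the smallest adjusted p; those whose call depended on a setting are mostly given as counts only, and some items are not reported here. The 19 alternatives were library totals, upper-quartile scaling, DESeq2 1.42.0, limma-voom (3.58.1), no filter, a minimum count of 30, 2 groups only, the length offset, a replicate block, leaving out each library, and leaving out replicate 2 of both OE and WT, the last chosen after seeing the data.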

Additional observations from a re-analysis of the deposited data

How the results depend on the processing

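For OE against WT, the calls of NQO1, TXN and FTH1 held in all 19 alternatives, and for KO against OE those of TXN, TXNRD1 and FTH1. Genes called lower in KO than in WT were 0 of the 10 by edgeR and limma-voom, and 1 (TXN) with library totals, upper-quartile scaling, no filter, 2 groups only, the replicate block, DESeq2, or OE and WT replicate 2 both left out. Members higher in KO than in OE came to 1 with upper-quartile scaling, the length offset, or both replicates 2 left out, and members lower in KO than in OE to 2 with the length offset. Library totals moved the median log2 fold change of all genes in OE against WT to -0.13 and left 765 genes higher and 2190 lower, beside 1365 and 1559. With each library left out in turn, genes called numbered 879 to 1570 higher and 885 to 1644 lower in KO against WT, 485 to 1798 higher and 759 to 1875 lower in OE against WT, and 2307 to 2982 higher and 2063 to 2921 lower in KO against OE. Members were 0 to 3 higher and 0 to 1 lower in KO against WT, 3 to 4 higher in OE against WT, and 1 to 2 higher and 3 to 4 lower in KO against OE. Among the 10 genes and SGPL1, the values that changed sign were all uncalled before and after. For KO against WT, library totals gave HMOX1 -0.018, GCLM -0.0022 and FTH1 -0.00019, and upper-quartile scaling HMOX1 -0.021, GCLM -0.0019 and FTH1 -0.00091. For OE against WT, library totals gave HMOX1 -0.090, upper-quartile scaling SGPL1 0.0027, no filter SGPL1 0.0075, the length offset HMOX1 -0.089, GCLC 0.19, GCLM 0.053, TXNRD1 0.080 and SGPL1 0.17, and both replicates 2 left out GCLM 0.0046, TXNRD1 0.0075 and SGPL1 0.013. For KO against OE, NFE2L2 was -0.054 with upper-quartile scaling, -0.0041 with 2 groups only, -0.047 with the length offset, -0.0019 with DESeq2 and -0.041 with both replicates 2 left out, and HMOX1 -0.061 with upper-quartile scaling, -0.0044 with a minimum count of 30, -0.011 with 2 groups only, -0.0011 with the replicate block and -0.0095 with DESeq2. Leaving out each library gave, for KO against WT, FTH1 -0.017 to 0.17, GCLM -0.070 to 0.18 and HMOX1 -0.080 to 0.14, for OE against WT, GCLC -0.11 to 0.049, GCLM -0.082 to 0.032, HMOX1 -0.083 to 0.15, SRXN1 -0.11 to 0.32 and SGPL1 -0.080 to 0.095, and for KO against OE, GCLM -0.050 to 0.20, HMOX1 -0.048 to 0.037 and NFE2L2 -0.047 to 0.091. The causes were not tested. Correlations of the libraries' deviations from their group means ran from -0.138 to 0.246 for the same replicate number and from -0.281 to 0.224 for different numbers. Between OE and WT the same-numbered values were 0.013, 0.246 and 0.136 for replicates 1 to 3. Whether replicate numbers pair the libraries was not tested. With the replicate block, TXN was called lower in KO than in WT (-0.41, adjusted p = 0.0131) and GCLC higher (0.38, adjusted p = 0.0359). SRXN1 had the fewest counts of the 10, at 44 to 102 per library, and 236 of its 2528 exonic bases are not shared with another gene.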
